A study of Sus scrofa with 20 samples.

Results

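Interferon-stimulated genes are the genes that cells switch on when they sense a virus or receive an interferon signal. They were described here in 20 female pigs, in samples of M. longissimus, a back muscle. A list of 44 such genes was matched to the gene symbols of the array's platform annotation, and each gene was read from its probe set of highest mean over the 20 arrays. For 40 of the 44 genes a probe set was found, with 79 probe sets in all, among 13755 genes represented on the array. IRF7, SAMD9, HERC5 and IFI44L had no probe set under these symbols. The animals fell into 10 pigs with low residual feed intake (RFI), which eat less than their growth and maintenance predict, and 10 pigs with high RFI, which eat more. All pigs were female, the labels name no treatment, and each pig had 1 Affymetrix Snowball array with 1 colour. Litter, age, breed and batch are not given in the labels, so p-values measure the spread between these pigs only.

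As background, type I interferons bind a receptor made of IFNAR1 and IFNAR2. The receptor's kinases then phosphorylate STAT proteins, and STAT2 with IRF9 forms part of the complex that binds interferon response elements in the promoters of the induced genes. Their products sense viral RNA, degrade it, stop its translation or tag proteins with ISG15, and several of them, among them the RNA sensors and the transcription factors, feed back on the pathway. Muscle fibres carry the receptor and can answer, and so can the vessels, macrophages and fibroblasts between them.

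All values are the deposited log2 signals, and all differences are low RFI minus high RFI on that scale. The 69 probe sets that measure background had a mean of 3.64 over all arrays, and 25 of the 40 members had a mean above it. Single background controls ran from 1.02 to 7.84, so this mean is a guide and not a detection limit. Per array the background mean ran from 3.46 to 3.90, with 3.66 ± 0.16 in low RFI and 3.61 ± 0.13 in high RFI (SD, n = 10 each). A group of 4 arrays stood apart at 3.83 to 3.90, namely low RFI replicates 7, 9 and 10 and high RFI replicate 9, and among the 20 members of smallest p the differences that moved by over 1.5 times without them are given both ways. The labelled tissue was checked on its markers: 9 of 9 measured fibre markers were above background, with a mean signal of 12.5 in both groups. In whole muscle, fewer cells of a type and less RNA per cell cannot be told apart.

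No interferon-stimulated gene was called different between the groups. A filter on low signal kept 39 of the 40 members, and limma with Benjamini-Hochberg adjustment over 33405 probe sets called 0 of them at an adjusted p under 0.05, as it did 0% of all tested probe sets. The smallest adjusted p of a member was 0.998. At an unadjusted p under 0.05 limma counted 0 of 39 members, against 415 of 12255 tested genes and 3.91% of all tested probe sets. A Wilcoxon rank-sum test also counted 0 members. Means were lower in low RFI for 24 members and higher for 15, where 50.8% of tested genes and 49.2% of all tested probe sets were lower. The median difference over the members was -0.067, beside -0.0028 over the 12255 genes tested. For 37 of the 39 members the 95% interval of the signal lay within a 2-fold difference in both directions, the exceptions being DDX58 and GBP1. For the 14 tested members below the background mean, a narrow interval of the signal does not exclude such a difference of the transcript.

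**Figure D1:**
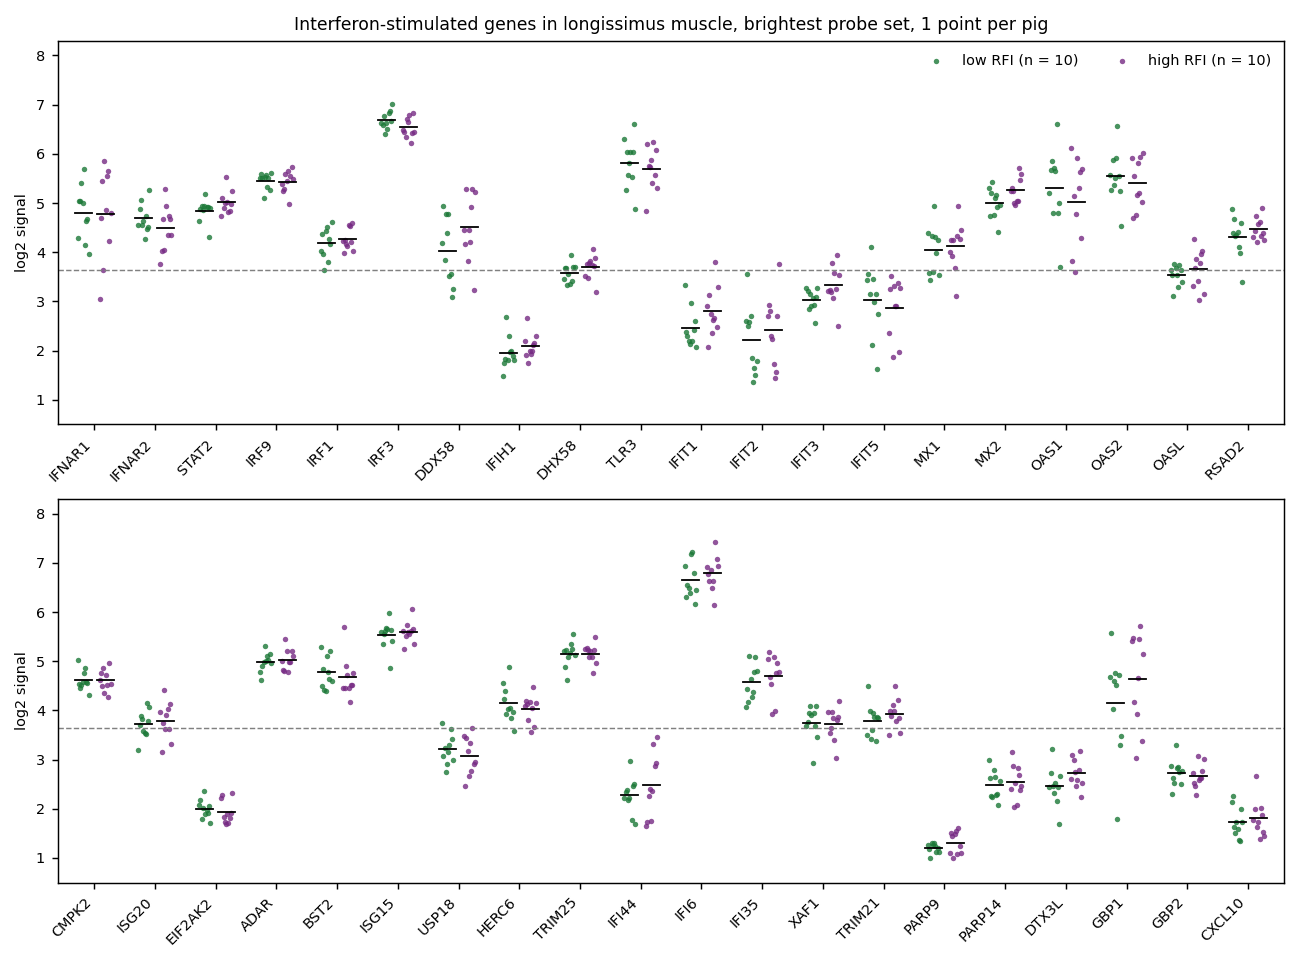
Log2 signal (vertical axis) of the 40 measured members in each pig, with low RFI pigs left of high RFI pigs, black bars for group means and a dashed line at the mean background control signal of 3.64. The groups overlap for every member, and GBP1, OAS1, IFNAR1, IFIT2 and DDX58 spread widely in both groups.

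**Figure D2:**
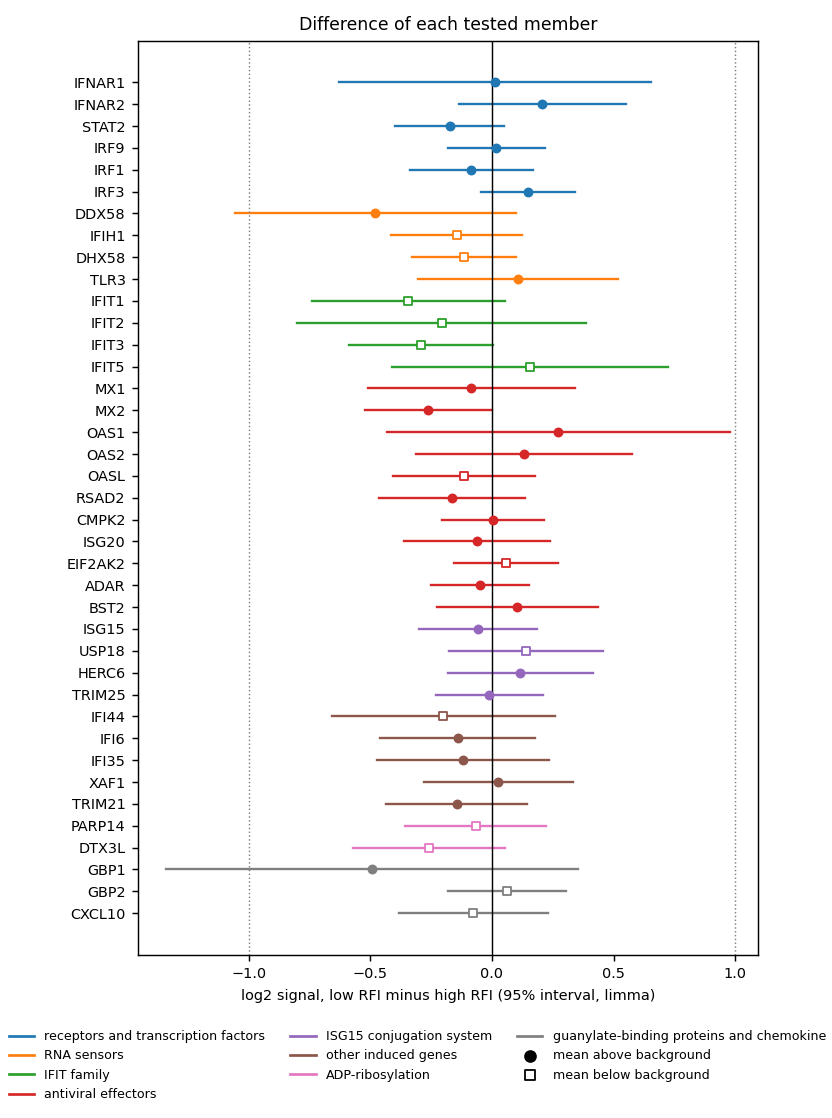
Difference of the log2 signal, low RFI minus high RFI, with its 95% interval from limma (horizontal axis) for the 39 tested members, coloured by role, with open squares for members below the background mean and dotted lines at a 2-fold difference. Every interval includes 0, with MX2 and IFIT3 closest to excluding it.

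The IFIT genes code for proteins that bind viral RNA and block its translation. All 4 measured members had means below the background control signal, and 3 of the 4 were lower in low RFI. IFIT3 ran from 2.56 over a median of 3.08 to 3.28 in low RFI pigs, against 2.49, 3.24 and 3.94 in high RFI pigs. Of the 10 low RFI pigs, 8 lay below the high RFI median, although the lowest pig of all was high RFI replicate 9. The difference was -0.29 ± 0.14 (SE; limma unadjusted p = 0.0520). IFIT1 ran from 2.07 over 2.34 to 3.34 in low RFI, against 2.07, 2.70 and 3.80 in high RFI, a difference of -0.34 ± 0.19. IFIT2 differed by -0.21 ± 0.29, and IFIT5 averaged 3.03 ± 0.72 in low RFI and 2.87 ± 0.60 in high RFI (SD, n = 10 each). Leaving out the 4 high-background arrays gave 0.11 for IFIT2 and -0.41 for IFIT3. With 1 pig left out the IFIT2 difference ranged from -0.36 without low RFI replicate 2 to -0.058 without high RFI replicate 10.

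IFIT3 had a second, dimmer probe set. Of the 6 pairs of probe sets within a member whose correlation passed the permutation test, the IFIT3 pair was the only negative one. The dimmer one ran from 1.44 over 1.98 to 2.49 in low RFI, against 1.62, 2.48 and 3.34 in high RFI, a difference of -0.42 ± 0.17 (limma unadjusted p = 0.0184). Both probe sets were thus lower on average in low RFI. Between pigs they ran against each other: r was -0.78 over 20 pigs with group means taken out, Spearman's rho -0.62, and the permutation p 3.9e-04 and 0.00553, adjusted over 26 such pairs 0.00254 and 0.0240. The correlation was -0.51 without the 2 pigs farthest from the median, -0.41 within low RFI and -0.90 within high RFI. The mean of the pair therefore varied little, averaging 2.50 ± 0.14 in low RFI pigs and 2.86 ± 0.10 in high RFI pigs (SD, n = 10 each). Low RFI pigs reached 2.70 at most, and high RFI pigs 2.73 at least, so the groups did not overlap. When each gene was taken as the mean of its tested probe sets, IFIT3 was the only gene of 12255 (0.00816%) without overlap. Its difference was -0.36, with a limma unadjusted p of 4.58e-05 and an adjusted p of 0.465, which misses the threshold. Both probe sets lie below the background mean, and this mean was singled out after its values were seen.

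Among the antiviral effectors, MX2 had the smallest p of all members. MX1 and MX2 code for dynamin-like GTPases that trap viral components. MX2 ran from 4.41 over 5.04 to 5.44 in low RFI, against 4.96, 5.24 and 5.71 in high RFI. Of the 10 low RFI pigs, 8 were below the high RFI median, while the groups overlapped over much of their range. The difference was -0.26 ± 0.13 (limma unadjusted p = 0.0507), and it was -0.17 with the 4 high-background arrays left out. MX1 averaged 4.04 ± 0.49 in low RFI and 4.12 ± 0.49 in high RFI. RSAD2, the radical SAM enzyme viperin that makes a chain-terminating nucleotide, differed by -0.17 ± 0.14. That RSAD2 difference was -0.063 without low RFI replicate 10 and -0.055 with the 4 high-background arrays left out. CMPK2, the nucleotide kinase beside it on the chromosome, differed by 0.0050 ± 0.10. ISG20, an exonuclease, EIF2AK2, the kinase PKR that halts translation, ADAR, which edits double-stranded RNA, and BST2, which tethers budding virus, had differences between -0.062 and 0.10.

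OAS1 and OAS2 make the 2-5A messenger that activates RNase L, and they showed the closest agreement of any member pair. OAS1 ran from 3.70 over 5.43 to 6.61 in low RFI, against 3.59, 5.23 and 6.13 in high RFI. OAS2 ran from 4.52 over 5.53 to 6.56 in low RFI, against 4.69, 5.38 and 6.03 in high RFI. Low RFI replicate 7 was the highest pig for both genes, and low RFI replicate 10 was the lowest of its group for both. Over 20 pigs with group means taken out r was 0.91 and rho 0.81, with permutation p of 2e-05 and 4e-05, adjusted over the 780 member pairs 0.0156 and 0.0312. The correlation was 0.86 without the 2 pigs farthest from the OAS1 median, 0.88 within low RFI, 0.93 within high RFI and 0.85 over the 16 other arrays.

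The second probe set of OAS1 followed the first with r of 0.86 and rho of 0.76, and that of OAS2 with r of 0.81 and rho of 0.75 (permutation p adjusted over 26 pairs at most 0.00234). The third probe sets followed less closely, with r of 0.22 for OAS1 and 0.42 for OAS2. OAS1 and OAS2 are direct neighbours in the RefSeq pig annotation (Sscrofa11.1), and whether their probes also bind each other's transcripts was not tested. OASL, a relative without the enzyme activity in humans, ran the other way against OAS1 (r = -0.57, rho = -0.62), with permutation p of 0.0124 and 0.00702 that missed the threshold after adjustment over 780 pairs (0.420 and 0.365). Between the RFI groups OAS1 differed by 0.27 ± 0.34, OAS2 by 0.13 ± 0.21 and OASL by -0.11 ± 0.14. With 1 pig left out OAS1 ranged from 0.11 without high RFI replicate 4 to 0.45 without low RFI replicate 10. OASL ranged from -0.18 without high RFI replicate 6 to -0.044 without high RFI replicate 2, and was -0.032 with the 4 high-background arrays left out. The spread between pigs was larger than these differences, with within-group SDs of 0.84 for OAS1 and 0.52 for OAS2.

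RNA sensors detect viral RNA in the cytosol or the endosome. DDX58, the sensor RIG-I, ran from 3.08 over 4.004 to 4.93 in low RFI, against 3.23, 4.46 and 5.29 in high RFI. Its difference was -0.48 ± 0.28, second in size to that of GBP1, and all 3 of its probe sets were lower in low RFI. The DDX58 signal followed the background control signal of the arrays, being lowest on the arrays of highest background. Over 20 arrays with group means taken out r was -0.86 and rho -0.83, both with a permutation p of 2e-05 and an adjusted p over 40 members of 8e-04. The correlation was -0.78 without the 2 arrays farthest from the median, -0.81 within low RFI, -0.92 within high RFI and -0.69 over the 16 other arrays. With the background signal as a covariate the DDX58 difference was -0.28, and -0.30 with the 4 high-background arrays left out. IFIH1, the sensor MDA5, differed by -0.14 ± 0.13, DHX58, the regulator LGP2, by -0.12 ± 0.10, and TLR3, the endosomal receptor, by 0.11 ± 0.20. IFIH1 ranged from -0.23 without low RFI replicate 4 to -0.083 without high RFI replicate 3, and DHX58 came to -0.075 without high RFI replicate 7. With the 4 high-background arrays left out DHX58 was at -0.18.

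**Figure D3:**
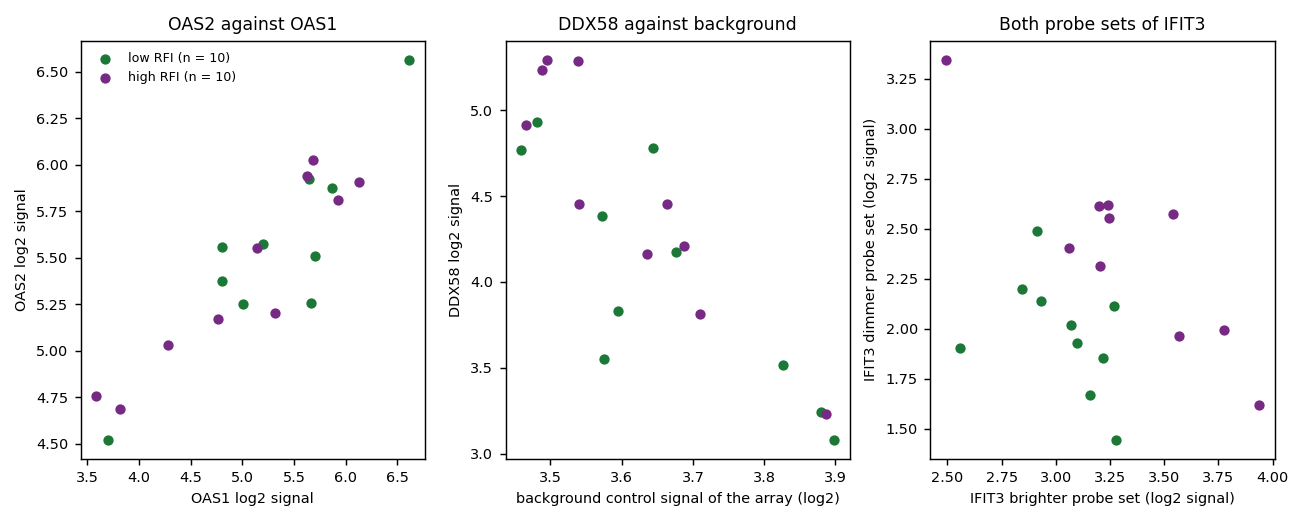
Log2 signals of single pigs, with low RFI in green and high RFI in purple (n = 10 each): OAS2 against OAS1 on the left, DDX58 against the background control signal of its array in the middle, and the dimmer against the brighter probe set of IFIT3 on the right. OAS1 and OAS2 run together (r = 0.91), DDX58 is low where background is high (r = -0.86), and the IFIT3 probe sets run against each other (r = -0.78) with the low RFI pigs nearer the lower left.

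The receptor chains and transcription factors of the pathway had means above background in all 6 measured cases. IFNAR1 spread widely, from 3.96 over 4.84 to 5.69 in low RFI and from 3.04 over 4.82 to 5.85 in high RFI, and the mean was 4.79 in low RFI pigs and 4.78 in high RFI pigs, a difference of 0.013 ± 0.31. Its second probe set, also above background, gave 0.049 ± 0.27. IFNAR2 differed by 0.21 ± 0.17, with 2 of 10 low RFI pigs below the high RFI median, and by 0.13 without high RFI replicate 1. STAT2 averaged 4.85 ± 0.23 in low RFI pigs and 5.02 ± 0.23 in high RFI pigs, a difference of -0.17 ± 0.11, which came to -0.11 without low RFI replicate 9. The second STAT2 probe set, of similar brightness at a mean of 4.78, gave -0.064 ± 0.15. With group means taken out it hardly followed the first (r = 0.15). IRF3, which is present before infection and switches on the interferon genes themselves, averaged 6.69 ± 0.18 in low RFI pigs and 6.54 ± 0.20 in high RFI pigs, a difference of 0.15 ± 0.094, and its second probe set also gave 0.15. IRF9 and IRF1 differed by 0.019 ± 0.096 and -0.084 ± 0.12.

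The ubiquitin-like protein ISG15 and its enzymes showed no common direction. ISG15 itself averaged 5.53 ± 0.29 in low RFI and 5.59 ± 0.22 in high RFI. USP18, which removes ISG15 from its targets and damps the receptor, differed by 0.14 ± 0.15. HERC6, an ISG15 ligase in mice, differed by 0.12 ± 0.14, and TRIM25, a ubiquitin ligase that activates RIG-I, by -0.010 ± 0.11. USP18 came to 0.071 without high RFI replicate 2. HERC6 ranged from 0.034 without low RFI replicate 6 to 0.18 without low RFI replicate 10, and was 0.20 with the 4 high-background arrays left out. Of the other induced genes, IFI44 differed by -0.20 ± 0.22, IFI6, a small mitochondrial and reticulum protein, by -0.14 ± 0.15, TRIM21, the cytosolic antibody receptor, by -0.14 ± 0.14, IFI35 by -0.12 ± 0.17 and XAF1 by 0.027 ± 0.15. IFI44 came to -0.089 without high RFI replicate 10 and to -0.025 with the 4 high-background arrays left out. IFI6 ranged from -0.21 without high RFI replicate 7 to -0.070 without high RFI replicate 8, and TRIM21 from -0.22 without low RFI replicate 2 to -0.081 without high RFI replicate 6. IFI44 ran from 1.68 over 2.29 to 2.98 in low RFI and from 1.65 over 2.38 to 3.46 in high RFI. The probe sets of IFI35 and TRIM21 disagreed in sign, as the second ones gave 0.25 ± 0.17 and 0.12 ± 0.11.

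DTX3L and PARP9 form a ubiquitin ligase and ADP-ribosyltransferase complex, and PARP14 belongs to the same enzyme family. DTX3L ran from 1.70 over 2.45 to 3.21 in low RFI, against 2.25, 2.67 and 3.18 in high RFI, a difference of -0.26 ± 0.15. PARP9 was the member that the filter left out, with 1.20 ± 0.10 in low RFI and 1.31 ± 0.23 in high RFI. PARP14 differed by -0.067 ± 0.14. GBP1, a guanylate-binding GTPase induced above all by interferon gamma, had the widest spread of all members. It ran from 1.80 over 4.56 to 5.57 in low RFI, against 3.04, 4.91 and 5.71 in high RFI, with 9 of 10 low RFI pigs below the high RFI median. Its difference was -0.49 ± 0.41, which came to -0.23 without low RFI replicate 7, the pig at 1.80, and to -0.081 with the 4 high-background arrays left out. A second GBP1 probe set, with a mean of 3.18 below the background mean, gave -0.24 ± 0.18 and followed the first with r of 0.42. GBP2 differed by 0.061 ± 0.12, and the chemokine CXCL10 averaged 1.73 ± 0.31 in low RFI pigs and 1.81 ± 0.37 in high RFI pigs.

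The spread between pigs differed greatly from member to member. The within-group SD was 1.01 for GBP1, 0.84 for OAS1, 0.76 for IFNAR1, 0.70 for IFIT2, 0.68 for DDX58, 0.67 for IFIT5, 0.53 for IFI44 and 0.52 for OAS2. Among all tested genes these SDs lay between the 90.5th percentile for OAS2 and the 99.6th for GBP1. They hold array effects too, as each pig had 1 array. DDX58, IFIT5, GBP1 and IFNAR1 ran against the arrays' background control signal, with r of -0.86, -0.70, -0.67 and -0.61. IFIT2, IFIT5 and IFI44 had means of 2.31, 2.95 and 2.37, below the background mean of 3.64. How much of the spread goes with the arrays was not tested. At the other end IRF3 had an SD of 0.19, IRF9 of 0.19 and ADAR of 0.20, at the 10.3rd, 12.6th and 15.6th percentile. The median over the tested members was 0.33, beside 0.28 over all tested genes. IFIT2 ran from 1.35 over 2.18 to 3.57 in low RFI and from 1.43 over 2.49 to 3.76 in high RFI. IFIT5 ran from 1.62 over 3.15 to 4.11 in low RFI and from 1.87 over 3.08 to 3.52 in high RFI.

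**Figure D4:**
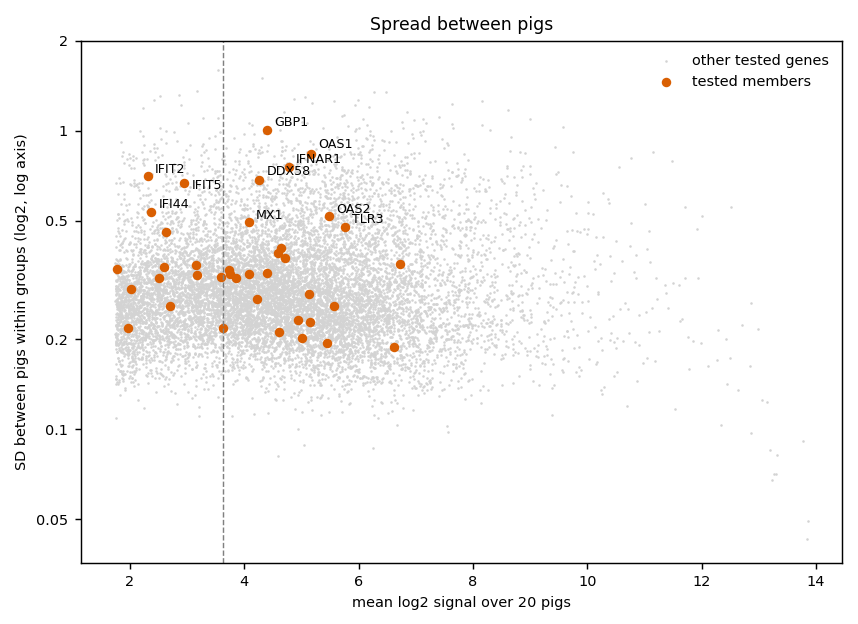
SD between pigs within the RFI groups (vertical axis, log2 units on a log axis) against the mean log2 signal over 20 pigs for all tested genes (grey) and the 39 tested members (orange), with a dashed line at the mean background control signal. The labelled members of widest spread run from GBP1 at 1.01 to TLR3 at 0.48, while IRF3 lies at 0.19.

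The members showed little common variation between pigs. With group means taken out, the median Pearson r over the 780 pairs of members was 0.034 (quartiles -0.16 and 0.20), beside -0.0031 (quartiles -0.22 and 0.21) over all pairs of tested genes. Pairs with r beyond 0.5 in either direction made up 5.26% of the member pairs and 10.4% of all gene pairs. The median r was 0.027 among the 25 members above background and 0.030 with the background signal regressed out. These correlations are descriptions over the same 20 arrays. After adjustment over the 780 pairs, 2 pairs passed the permutation test, OAS1 with OAS2 and, in the opposite direction, IRF3 with DDX58. By ranks only the OAS pair passed.

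IRF3 and DDX58 had r of -0.79 and rho of -0.80 over 20 pigs, with permutation p of 8e-05 and 1.7e-04 and adjusted values of 0.0312 and 0.0663. The correlation was -0.79 without the 2 pigs farthest from the median, -0.80 within low RFI and -0.78 within high RFI. Both genes followed the arrays' background in opposite directions, with r of 0.68 for IRF3, and with that signal regressed out their r was -0.54. IFIT5 (r = -0.70, rho = -0.69), GBP1 (-0.67, -0.63) and IFNAR1 (-0.61, -0.68) ran against the background signal and TRIM25 (0.71, 0.61) with it. Their permutation p adjusted over 40 members was at most 0.0185, and by ranks at most 0.0435. Without the 2 farthest arrays r was -0.53, -0.61, -0.67 and 0.56, and over the 16 arrays of lower background it was -0.54, -0.34, -0.62 and 0.58. Within each RFI group all 4 kept their sign, with a size of at least 0.53.

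Neighbouring members did not share the tightness of the OAS pair. IFIT1 and IFIT3, direct neighbours, had r of 0.47 (rho 0.32), MX1 and MX2 0.46 (rho 0.58), RSAD2 and CMPK2 0.10 (rho -0.15), and GBP1 and GBP2 -0.0053 (rho -0.0028). The direct neighbours IFIT2 and IFIT3 had r of -0.053 (rho -0.055), and PARP9 and DTX3L 0.045 (rho -0.12). Their permutation p adjusted over 780 pairs was at least 0.546, and by ranks at least 0.391. Among positive pairs outside such neighbours, the highest Pearson r was that of IFIT1 with USP18, at 0.71 with rho of 0.71 (permutation p 6.4e-04 and 5.8e-04, adjusted 0.152 and 0.113). By ranks it was DDX58 with IFIT5, at rho of 0.75 with r of 0.70 (permutation p 3.1e-04 and 7.8e-04, adjusted 0.0806 and 0.152). With the background signal regressed out r was 0.76 for IFIT1 with USP18 and 0.28 for DDX58 with IFIT5. Different probe sets of the same member often disagreed too. Over 26 such pairs in 16 members the median r was 0.26, 5 pairs exceeded 0.5, and 10 pairs had RFI differences of opposite sign. Those 10 pairs were in TLR3, IFIT5, OASL, BST2, ISG15, IFI35, TRIM21 and PARP14.

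**Figure D5:**
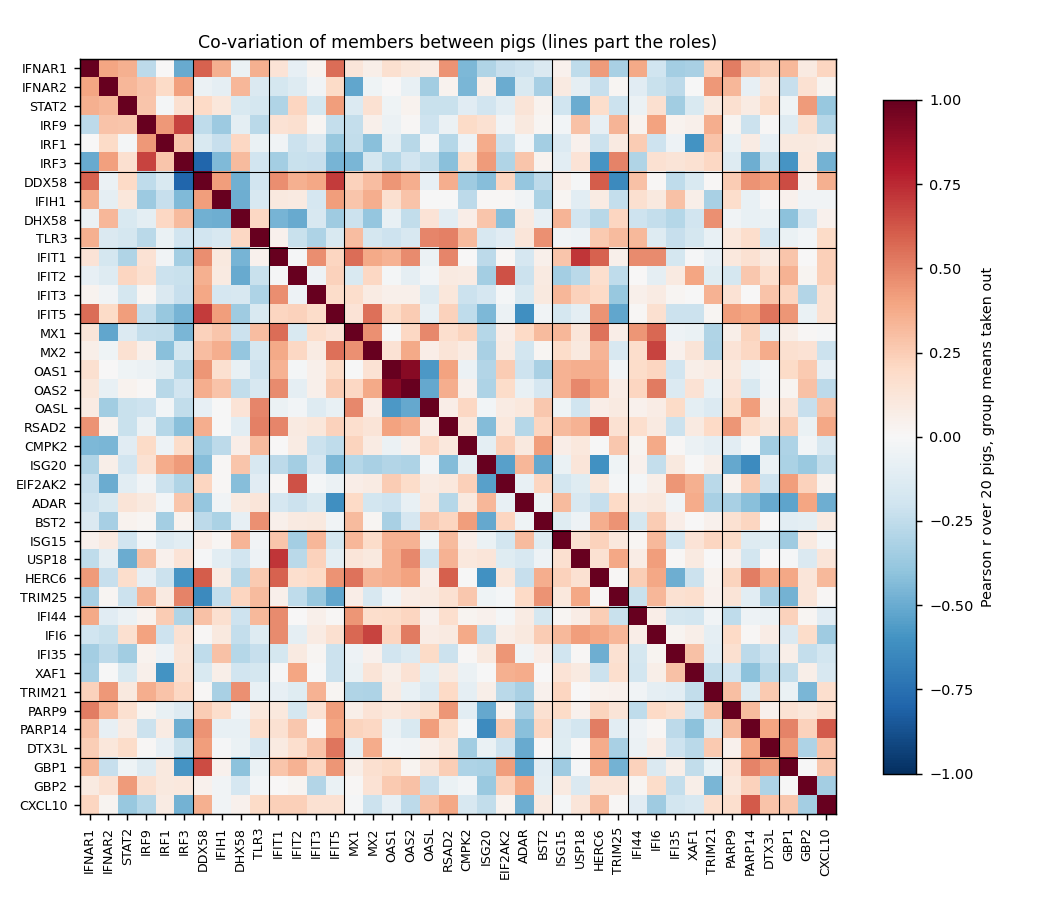
Pearson correlation between members over 20 pigs with the group means taken out (red positive, blue negative), with members ordered by role and black lines between roles. OAS1 with OAS2 stands out in red (0.91) and IRF3 with DDX58 in blue (-0.79), while most other cells are pale.

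High RFI replicate 8 was among the 3 highest pigs for 17 of the 40 members and highest of all for 9, among them IFIT1, IFIT3, MX1, MX2, IFI6 and GBP1. Its mean over the members, each centred on its mean over 20 pigs, was 0.29, the highest of all pigs. Low RFI replicate 10 was among the 3 lowest pigs for 12 members and had the lowest mean, -0.25. The group means of this centred value were -0.034 ± 0.11 in low RFI and 0.034 ± 0.12 in high RFI (SD, n = 10 each). Over 20 arrays it ran against the background control signal with r of -0.58, given here as a description. The background signal was 3.54 for high RFI replicate 8 and 3.88 for low RFI replicate 10.

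Other genes of the interferon pathway gave no call either. Of 46 tested genes drawn from receptors, kinases, adaptors, sensors, inhibitors and further induced genes, limma called 0 at an adjusted p under 0.05, and 0 had an unadjusted p under 0.05. The median difference over them was -0.0083, with 21 higher and 25 lower in low RFI. Among the upstream genes MYD88, the adaptor of Toll-like receptors, differed by 0.28 ± 0.14 (limma unadjusted p = 0.0571), and TLR7, an endosomal RNA receptor, by -0.18 ± 0.14. SOCS3, the cytokine signalling inhibitor, averaged 6.50 in low RFI pigs and 6.96 in high RFI pigs, a difference of -0.46 ± 0.32. Among the further induced genes UBE2L6, the conjugating enzyme for ISG15, differed by -0.14 ± 0.10, LY6E by 0.17 ± 0.12 and TRIM14 by 0.19 ± 0.15. Interferon gamma itself had a mean of 1.18 in low RFI pigs and 1.35 in high RFI pigs, below the filter.

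Markers of other cells in the muscle were measured beside the members. Macrophage and monocyte markers, with 9 of 11 above background, had a mean of 5.43 ± 0.22 (5.09 to 5.80) in low RFI and 5.22 ± 0.21 (4.98 to 5.60) in high RFI. Of these 11 markers 9 were higher and 2 lower in low RFI, and none was called (limma adjusted p = 0.998 for each). The 3 of smallest p, VSIG4, MSR1 and TYROBP, differed by 0.46 ± 0.19, 0.48 ± 0.21 and 0.26 ± 0.12, while MARCO differed by -0.18 ± 0.12 and MRC1 by -0.051 ± 0.15. Fibroblast markers, 8 of 8 above background, had 8.76 ± 0.15 in low RFI and 8.59 ± 0.19 in high RFI. All 8 were higher in low RFI, and none was called. Their 3 of smallest p, FBLN1, THY1 and COL1A2, differed by 0.31 ± 0.14, 0.21 ± 0.097 and 0.22 ± 0.10. T and NK cell markers, 8 of 13 above background, differed by -0.017, and dendritic cell markers, 5 of 6, had 4.39 ± 0.13 in low RFI pigs and 4.46 ± 0.22 in high RFI pigs. B and plasma cell, neutrophil, endothelial and adipocyte markers differed by 0.10, -0.035, 0.014 and 0.10. Across the 8 members of widest spread and 9 marker lists, none of 72 correlations passed a permutation test after adjustment (smallest adjusted p 0.711). The part of these cells in the group differences of the members was not tested.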

How the data were processed

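Total RNA of longissimus muscle was converted with the Ambion WT Expression Kit, biotin-labelled and measured on 20 arrays, 1 per pig, per the labels' protocols. The authors deposited 1 log2 signal per probe set and array; the log2 scale was read from the values. The submitters' processing notes name GCOS 1.1.1; summarisation, background correction and normalization are not given in the sources used here. Array means lay between 3.33 and 3.35, so values were used as they stood. The number of arrays limits the precision.

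Of 47845 probe sets, 123 controls were left out, and 33405 with a mean above the 30th percentile (1.75) were tested with limma 3.58.1 in R 4.3.3, 2-sided, with Benjamini-Hochberg adjustment at 0.05. The annotation gave 1 symbol for 26426 probe sets and none for 21419. Correlations used values with group means removed and 100000 permutations of animals within groups (numpy 2.4.6, Python 3.11.15). Figures were drawn with matplotlib 3.10.9. Leaving out the 4 high-background arrays was added as an alternative after the data were seen. Scripts were tested on simulated data. Members, lists, roles and tests were chosen with earlier results of these data known. Differences were named for the 20 members of smallest p, and animal ranges for the 8 of widest spread. Differences of the other members, ranges of IFIT1, IFIT3, MX2 and DTX3L, and interferon gamma, MARCO and MRC1 were added after their values were seen. Other pathway genes and markers were named by smallest p, up to 3 per list. Replicates were numbered within groups for naming only.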

Additional observations from a re-analysis of the deposited data

Results flagged for a closer look

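Single pigs stood apart from the others of their group in 2 of 80 checks, each on 1 member in 1 group of 10 pigs, and chance flags about 1 in 20 such groups. BST2 read 5.70 in high RFI replicate 2, where the next highest pig of that group read 4.91. CXCL10 read 2.67 in high RFI replicate 3, where the next highest read 2.02, and the signals of CXCL10 lay below the background mean in all pigs.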

How the results depend on the processing

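No member and no other pathway gene was called by limma under any alternative, nor with any single pig left out. The count of members at an unadjusted p under 0.05, 0 as reported, was 2 with no low-value filter, 2 with arrays centred on their medians, 1 with cyclic loess, 1 with array weights, 2 with gene means over probe sets and 1 with the 4 high-background arrays left out. These were MX2 or IFIT3 in each case. It ranged from 0 to 3 with 1 pig left out, and was above 0 without low RFI replicate 1, 2, 3, 4, 7 or 10 or high RFI replicate 2, 4, 5, 6, 7 or 9. The median difference over members ranged from -0.091 to -0.046 with 1 pig left out, was -0.014 over the same 39 members with gene means over probe sets, and was 0.0042 over the 10 members with a mean of at least 5. Sign changes were counted only for the members of smallest p, from MX2 to IFIT2. For the other members, some with differences near 0, they were not counted. Of the differences followed in this way, 2 turned: OASL to 0.017 with gene means and IFIT2 to 0.11 with the 4 high-background arrays left out. The cause was not tested. No paired analysis was possible because the labels give no number shared between groups. Over 15 members near or below background, dim signals limit what can be seen.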

Other observations

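Genes outside the list whose values most resembled the mean of the centred members over 20 arrays, among 8520 candidates above background, were EML4 (r = 0.82), CPSF2 (0.80), NAPEPLD (0.80), TMX3 (0.79), LZIC (0.78), MLLT10 (0.78), ACTR8 (0.78) and PLEKHF2 (0.78). All 8 ran against the arrays' background control signal, with r between -0.59 for MLLT10 and -0.89 for LZIC. These are descriptions over arrays that share their background, with no test. HERC6 followed the mean of the other members most closely (r = 0.77) and DDX58 next (0.72), while ISG20 (-0.65) and IRF3 (-0.63) ran against it.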
